A study of Sus scrofa with 36 samples.

Results

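The genes described here were those of the pig heart at postnatal day 1 (P1) and postnatal day 28 (P28), read as counts per gene in 3 hearts at each age. A gene was taken in when 3 or more of the 6 libraries held 10 counts of it or more, and 5280 of the 9815 genes of the table met this. Of the other 4535 genes, 1781 had 0 counts in all 6 libraries. The table covers chromosomes 1, 2, 6 and 13, so genes on other chromosomes were not analysed here, which leaves out many members of every pathway named below. The hearts came from domestic Yorkshire pigs that were fed normally, without a surgical or drug treatment, and the pigs at P1 and P28 were different animals. Samples were taken from whole hearts, so they hold cardiomyocytes and other cells. Males and females were used, and the sex of each pig was not given in the sources used here. The study followed circular RNAs, microRNAs and messenger RNAs in neonatal pig hearts at P1, P3, P7 and P28, and the total RNA libraries used here were made by CD Genomics (batch cd). The column headers number the 3 pigs of each age 4 to 6, and pigs are named by these numbers.

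In the first weeks after birth the mammalian heart passes from growth by cell division to growth by enlargement of cardiomyocytes, which leave the cell cycle. Over the same weeks the newborn heart, which depended on glucose and lactate before birth, turns to fatty acids as fuel, and its contractile proteins change from fetal to adult isoforms. Fibroblasts lay down and remodel the matrix while resident macrophages, other immune cells and nerves settle in the tissue. The question behind the comparison of P1 with P28 was which genes differ between the earliest and the latest age sampled.

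Tissue identity was read from defining markers on these chromosomes. TNNI3, cardiac troponin I, MYL3, a myosin light chain of ventricle and slow muscle, and MYBPC3, cardiac myosin-binding protein C, were abundant in all 6 libraries. The 12 measured cardiomyocyte markers summed to 91555 to 105095 CPM at P1 and 98099 to 110948 CPM at P28, where CPM is a count scaled to the library total after TMM normalization, a correction for library composition. Skeletal muscle markers were low beside them. TNNT1, slow skeletal troponin T, which fetal heart also expresses, had 227, 80.2 and 149 CPM at P1 and 107, 98.2 and 92.2 CPM at P28, while the fast-muscle genes MYBPC2 and ACTN3 stayed at or below 2.31 CPM in each library. Of the atrial markers, none lay in the table.

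Library totals ran from 12024443 to 14883849 counts at P1 and from 10112239 to 12987113 counts at P28. Genes annotated as Metazoa_SRP, the RNA of the signal recognition particle, took 12.9% to 19.5% of the counts at P1 and 7.88% to 12.0% at P28. This share did not overlap between the ages, and the number of calls without these genes is given below. On the leading principal component, which held 34.6% of the variance over 12 libraries of the batch, the 3 P28 hearts sat at 30.7 to 40.1 and the other 9 hearts at -15.8 to -4.12. P3 pig 5 stood apart on the following component at -40.6, and since P3 and P7 hearts entered the fit to estimate the spread, counts without it are given below.

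At an adjusted p under 0.05 (edgeR's quasi-likelihood test with Benjamini-Hochberg adjustment over 5280 genes), 861 genes differed between P1 and P28. At P28, 408 genes were higher, 7.73% of those tested, and 453 were lower, 8.58%. The median log2 fold change over all genes tested was 0.00. Among the calls the median size of the log2 fold change was 1.00. More than a log2 fold change of 2 was seen for 70 genes that rose and 69 that fell. The 3 values of each age did not overlap in 2391 of the 5280 genes (45.3%), and in 852 of the 861 called. Protein-coding genes made up 331 of the rises and 411 of the falls, and long noncoding RNAs (lncRNAs) 59 and 37. The number of calls was sensitive to single libraries: it lay between 463 and 663 when 1 of the 6 was left out, and was 1412 without P3 pig 5. Of the 861 genes, 358 (41.6%) passed the test whichever of the 6 libraries was left out.

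**Figure D1:**
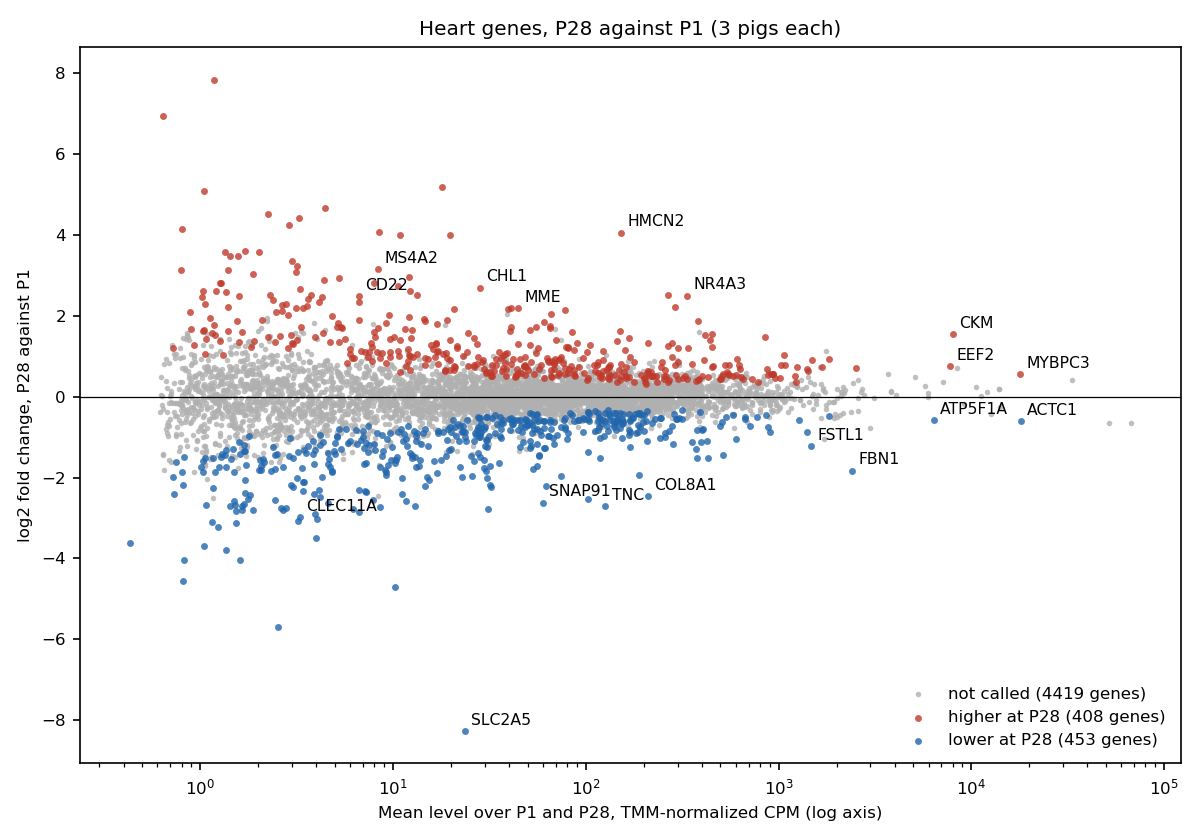
Each point is 1 of the 5280 genes, with its mean level over P1 and P28 (TMM-normalized CPM, log axis) and its log2 fold change at P28 against P1 (3 pigs each). Red points (408) were higher and blue points (453) lower at an adjusted p under 0.05, and SLC2A5 lies lowest, at a fitted -8.26 from 5 counts at P28, while CKM and MYBPC3 are the most abundant labelled genes that rose.

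The genes and lncRNAs named for the largest changes were picked among calls without overlap between the ages. Their lack of overlap, stated below, therefore follows from the choice. Among named protein-coding genes with at least 5 CPM in the higher group, the largest rise was that of HMCN2 (hemicentin 2), a large matrix protein of the immunoglobulin family. HMCN2 (chromosome 1, 270364033 to 270523287 in the positions of the gene file) had 10.6, 13.3 and 28.2 CPM at P1 and 191, 308 and 365 CPM at P28. The lowest P28 pig was far above the highest P1 pig (log2 fold change 4.06 ± 0.69, adjusted p = 0.00254), and at P7 the mean was 91.1 CPM. At P3 HMCN2 had 12.3, 129 and 33.96 CPM, highest in pig 5, the library that stood apart. Other proteins of the cell surface and of the tissue fluid also rose. MME, neprilysin, a membrane protease that cleaves natriuretic peptides among other substrates, had 13.6, 20.4 and 14.1 CPM at P1 and 87.7, 84.8 and 46.3 CPM at P28 (log2 fold change 2.19 ± 0.27, adjusted p = 0.000454). ITIH3, a heavy chain of a serum protein that binds hyaluronan, had 25.4, 9.57 and 8.96 CPM at P1 and 73.2, 50.4 and 76.8 CPM at P28 (log2 fold change 2.19 ± 0.45, adjusted p = 0.00748). Neither gene overlapped between the ages, as the choice required. ITIH3 shares its span with NEK4, which had 2.69 times its counts, and the strand setting of the counting was not given in the sources used here, so reads of overlapping genes cannot be told apart. ALDH1A1, an enzyme that makes retinoic acid from retinaldehyde, had 1.63, 6.04 and 4.28 CPM at P1 and 20.5, 24.6 and 22.9 CPM at P28 (log2 fold change 2.50 ± 0.38, adjusted p = 0.00135).

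A further group of the largest rises consisted of genes known from white blood cells or from immune signalling. MS4A2, the beta chain of the IgE receptor of mast cells, had 1.86, 2.09 and 1.07 CPM at P1 and 22.6, 12.5 and 10.1 CPM at P28 (log2 fold change 3.16 ± 0.37, adjusted p = 0.000353). CD22, an inhibitory lectin of B cells, had 2.30, 1.30 and 2.47 CPM at P1 and 14.8, 9.15 and 9.98 CPM at P28 (log2 fold change 2.49 ± 0.33, adjusted p = 0.000649). GPR171, a receptor of lymphocytes, had 0.743, 0.504 and 0.576 CPM at P1 and 9.09, 4.25 and 4.01 CPM at P28 (log2 fold change 3.23 ± 0.50, adjusted p = 0.00153). The choice required each P28 heart to be above any P1 heart, and P28 pig 4 was the highest in all 3 genes. CTSW, a cathepsin of natural killer and cytotoxic T cells, had 1.26, 1.15 and 0.905 CPM at P1 and 7.74, 2.29 and 5.38 CPM at P28 (log2 fold change 2.20 ± 0.45, adjusted p = 0.00748). TNFSF15, a cytokine of the tumor necrosis factor family, had 2.38, 2.45 and 1.81 CPM at P1 and 13.1, 12.4 and 8.03 CPM at P28 (log2 fold change 2.33 ± 0.33, adjusted p = 0.000891). BATF2, a leucine zipper factor induced by interferon, had 0.891, 1.37 and 1.48 CPM at P1 and 5.74, 4.90 and 7.05 CPM at P28 (log2 fold change 2.23 ± 0.42, adjusted p = 0.00466). All 3 were without overlap as well, though CTSW overlaps EFEMP2, which had 21.5 times its counts, and GPR171 overlaps MED12L, which had 3.25 times its counts. In bulk tissue, more cells of a type and more RNA per cell cannot be told apart.

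Genes best known from nerve tissue were the third group. CHL1, an adhesion molecule of neurons and glia, had 11.1, 5.90 and 5.59 CPM at P1 and 39.4, 51.7 and 55.2 CPM at P28 (log2 fold change 2.69 ± 0.31, adjusted p = 0.000350). GRIK3, a subunit of kainate glutamate receptors, had 3.57, 1.08 and 1.23 CPM at P1 and 10.9, 18.3 and 12.5 CPM at P28 (log2 fold change 2.82 ± 0.43, adjusted p = 0.00153). PEX5L, a protein that binds HCN pacemaker channels, had 0.594, 1.15 and 1.64 CPM at P1 and 2.47, 11.9 and 4.89 CPM at P28 (log2 fold change 2.50 ± 0.61, adjusted p = 0.0170). P28 pig 5 held the highest value of PEX5L by a wide margin, and the call was lost without P28 pig 5 (adjusted p = 0.0725), P1 pig 4 (0.0564) or P1 pig 5 (0.0529). At P3 and P7 the mean of PEX5L was 10.6 and 9.53 CPM, above the P28 mean. The remaining large rises were in nuclear proteins. NR4A3, an orphan nuclear receptor that responds fast to stimuli, had 141, 53.03 and 108 CPM at P1 and 340.4, 858 and 514 CPM at P28 (log2 fold change 2.50 ± 0.47, adjusted p = 0.00463). ELL3, an elongation factor of RNA polymerase II, had 0.966, 0.432 and 0.576 CPM at P1 and 3.27, 6.95 and 6.75 CPM at P28 (log2 fold change 3.08 ± 0.41, adjusted p = 0.000649). For NR4A3 the ages between were lowest, at 34.5 CPM for P3 and 28.8 CPM for P7.

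The largest fall was that of SLC2A5, the fructose transporter GLUT5 (chromosome 6, 69507825 to 69535372). It had 82.7, 29.7 and 28.5 CPM at P1 and 0.160, 0.163 and 0.0979 CPM at P28, or 2, 2 and 1 counts in the P28 hearts. The ratio of the summed counts, scaled to library size, was 331 in favour of P1, with a 95% counting interval of 142 to 1022 that covers counting error only, and the adjusted p was 6.55e-05. At P3 it had 1.66, 3.997 and 1.41 CPM, and at P7 the mean was 0.515 CPM.

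Among the 15 largest falls were genes of the matrix and of mesenchyme. TNC, tenascin-C, a matrix glycoprotein of developing and injured tissue, had 401, 157 and 99.3 CPM at P1 and 47.1, 27.1 and 26.6 CPM at P28 (log2 fold change -2.70 ± 0.57, adjusted p = 0.00780). P1 pig 4 was by far the highest, yet each P1 heart was above each P28 heart. COL8A1, a chain of the short-chain collagen VIII, had 213, 448 and 408 CPM at P1 and 72.3, 67.1 and 55.5 CPM at P28 (log2 fold change -2.46 ± 0.29, adjusted p = 0.000353). HAPLN1, a link protein that ties proteoglycans to hyaluronan, had 9.51, 13.5 and 12.01 CPM at P1 and 0.319, 1.55 and 3.03 CPM at P28 (log2 fold change -2.86 ± 0.70, adjusted p = 0.0173). FREM1, a basement membrane protein, had 3.34, 7.41 and 6.41 CPM at P1 and 0.399, 0.572 and 1.08 CPM at P28 (log2 fold change -3.08 ± 0.89, adjusted p = 0.0340). HAPLN1 lost its call without P28 pig 4 (adjusted p = 0.0504) or P28 pig 5 (0.0572), and FREM1 passed the test only with all 6 libraries or without P1 pig 4, its p reaching 0.111 without P28 pig 4. PRRX2, a homeobox factor of embryonic mesenchyme, had 9.06, 7.55 and 7.07 CPM at P1 and 1.68, 1.31 and 0.783 CPM at P28 (log2 fold change -2.63 ± 0.32, adjusted p = 0.000433). CLEC11A, a secreted growth factor of bone and blood progenitors, had 5.57, 6.76 and 5.18 CPM at P1 and 1.12, 0.572 and 0.489 CPM at P28 (log2 fold change -2.97 ± 0.39, adjusted p = 0.000542). Neither PRRX2 nor CLEC11A overlapped between the ages, as the choice required.

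The other large falls were in genes of vesicles, axon guidance and the cytoskeleton. SNAP91, a clathrin assembly protein best known from synapses, had 100.4, 99.5 and 110.1 CPM at P1 and 21.5, 14.6 and 14.2 CPM at P28 (log2 fold change -2.62 ± 0.19, adjusted p = 2.56e-05). Its means at P3 and P7, 76.9 and 57.95 CPM, lay between those of P1 and P28. SYT12, a synaptotagmin, had 3.34, 8.27 and 9.29 CPM at P1 and 0.718, 0.981 and 1.08 CPM at P28 (log2 fold change -2.91 ± 0.45, adjusted p = 0.00153). SEMA5B, a semaphorin that guides axons, had 18.9, 11.8 and 9.54 CPM at P1 and 0.798, 3.19 and 2.84 CPM at P28 (log2 fold change -2.56 ± 0.42, adjusted p = 0.00209). For AIF1L, an actin-binding protein, the levels were 271, 119 and 135 CPM at P1 and 37.3, 35.6 and 17.3 CPM at P28 (log2 fold change -2.54 ± 0.36, adjusted p = 0.000989). MYH15, a myosin heavy chain, had 6.61, 5.68 and 8.96 CPM at P1 and 1.44, 1.55 and 0.783 CPM at P28 (log2 fold change -2.47 ± 0.54, adjusted p = 0.00970). All 5 were without overlap by the rule of choice. ZNF536, a zinc finger repressor, had 19.4, 26.4 and 21.9 CPM at P1 and 3.11, 2.45 and 4.80 CPM at P28 (log2 fold change -2.71 ± 0.65, adjusted p = 0.0152) and lost its call without P28 pig 4 (adjusted p = 0.0554) or P28 pig 5 (0.0572). STK32A, a serine/threonine kinase, had 30.5, 45.8 and 87.5 CPM at P1 and 3.99, 10.4 and 9.40 CPM at P28 (log2 fold change -2.79 ± 0.85, adjusted p = 0.0435). At P7 it had 304, 13.9 and 330.2 CPM, so that pigs 4 and 6 but not pig 5 were above each heart of the other ages. Its adjusted p was 0.0628 with the pig number as a block, and without any of P1 pigs 5 and 6 or the P28 pigs it lay between 0.0750 and 0.139.

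**Figure D2:**
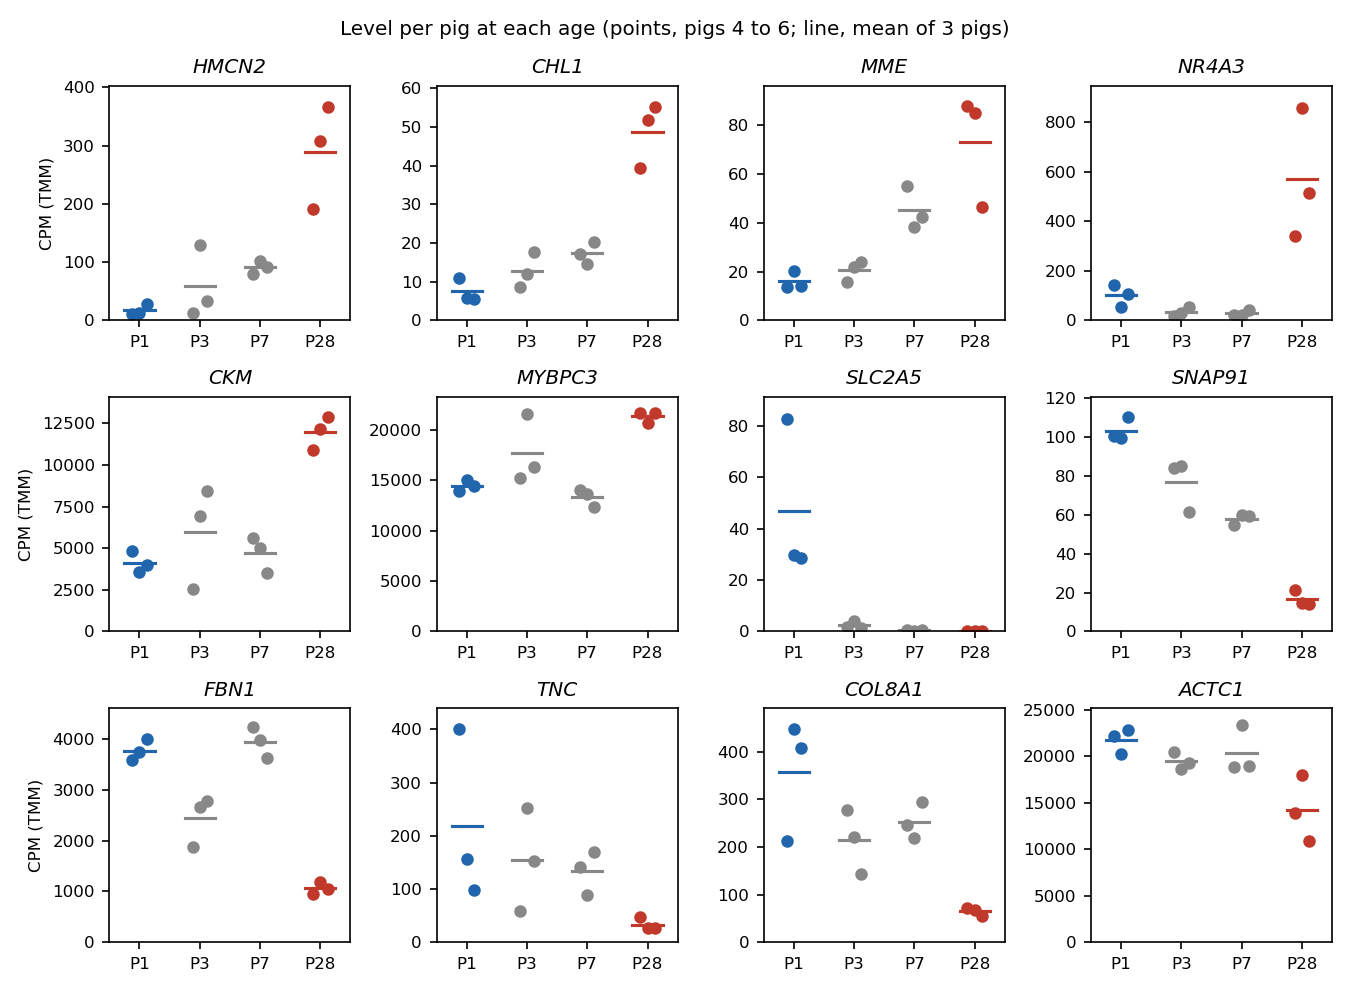
TMM-normalized CPM of 12 genes in each pig at P1, P3, P7 and P28 (points, pigs 4 to 6; lines, means of 3 pigs; blue P1, red P28, grey the ages between; each panel starts at 0). HMCN2 rises from a mean of 17.4 CPM at P1 to 288 CPM at P28, and SLC2A5 is near 0 from P3 on.

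Share of reads is a measure in which long and abundant transcripts weigh most. Among called protein-coding genes with a symbol and no overlap between the ages, its largest gains were in CKM, MYBPC3, EEF2, MAP4 and KLHL24. Genes that were not called, such as TNNI3, could gain more. CKM, the muscle creatine kinase that buffers ATP at the myofibril, gained 7853 CPM, from 4124 ± 641 CPM at P1 and 11977 ± 998 CPM at P28 (mean ± SD, n = 3; log2 fold change 1.54 ± 0.34, adjusted p = 0.00956). MYBPC3 gained 6863 CPM, with 13967, 15006 and 14487 CPM at P1 and 21705, 20664 and 21679 CPM at P28 (log2 fold change 0.56 ± 0.14, adjusted p = 0.0215). EEF2, the elongation factor that moves the ribosome along messenger RNA, had 5975, 5501 and 5839 CPM at P1 and 10301, 9241 and 9626 CPM at P28 (log2 fold change 0.75 ± 0.12, adjusted p = 0.00184). MAP4, a microtubule-associated protein, had 1564, 1119.8 and 1091 CPM at P1 and 3212, 2061 and 1916 CPM at P28 (log2 fold change 0.93 ± 0.23, adjusted p = 0.0167), and KLHL24, an adaptor of a ubiquitin ligase, had 1110.3, 1139.8 and 893 CPM at P1 and 2202, 1909 and 1741 CPM at P28 (log2 fold change 0.90 ± 0.14, adjusted p = 0.00153). All 5 were higher in every P28 heart than in any P1 heart, as the choice required. The call of MYBPC3 held only with all 6 libraries or without P28 pig 5, with adjusted p of up to 0.0714, and that of MAP4 was lost without P1 pig 5, P1 pig 6 or P28 pig 4, with p of up to 0.0735.

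Among called protein-coding genes with a symbol and no overlap between the ages, the largest losses in share of reads were in ACTC1, FBN1, ATP5F1A, FSTL1 and CTNNB1. Genes that were not called, such as CKMT2, could lose more. ACTC1, cardiac alpha actin, had 22243, 20243 and 22852 CPM at P1 and 13949, 17976 and 10933 CPM at P28 (log2 fold change -0.61 ± 0.17, adjusted p = 0.0340). FBN1, fibrillin-1, the backbone of elastic microfibrils, had 3574, 3728 and 3995 CPM at P1 and 948, 1186 and 1053 CPM at P28 (log2 fold change -1.83 ± 0.16, adjusted p = 6.55e-05). FSTL1, a secreted follistatin-like glycoprotein, had 2047, 2047 and 2084 CPM at P1 and 964, 860.1 and 840.4 CPM at P28 (log2 fold change -1.21 ± 0.13, adjusted p = 0.000320). ATP5F1A, the alpha subunit of mitochondrial ATP synthase, had 7936, 7340.2 and 7696 CPM at P1 and 5469, 5282 and 4528 CPM at P28 (log2 fold change -0.59 ± 0.16, adjusted p = 0.0243), and CTNNB1, beta-catenin, had 1888, 2433 and 2055 CPM at P1 and 1488, 1614 and 1479 CPM at P28 (log2 fold change -0.48 ± 0.14, adjusted p = 0.0346). None of the 5 overlapped between the ages, as the choice required. FBN1 and FSTL1 passed the test without each library, while ACTC1, ATP5F1A and CTNNB1 each lost their call without 5 of the 6 libraries, at an adjusted p of up to 0.117 (ACTC1, without P28 pig 6), 0.0935 (ATP5F1A, without P28 pig 6) and 0.139 (CTNNB1, without P1 pig 5). With the pig number as a block CTNNB1 was at an adjusted p of 0.0586.

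Among lncRNAs with at least 5 CPM in the higher group, the largest rises were all on chromosome 13 and the files pair none of them with a symbol. ENSSSCG00000048519 had 0.891, 0.791 and 1.15 CPM at P1 and 14.04, 12.3 and 21.6 CPM at P28 (log2 fold change 4.07 ± 0.51, adjusted p = 0.000474). ENSSSCG00000051259 had 0.0743, 0.432 and 0.329 CPM at P1 and 3.35, 7.93 and 7.34 CPM at P28 (log2 fold change 4.43 ± 0.77, adjusted p = 0.00298) and ENSSSCG00000043820 had 0.0743, 0.360 and 0.411 CPM at P1 and 2.63, 6.21 and 7.54 CPM at P28 (log2 fold change 4.23 ± 0.76, adjusted p = 0.00338). The last 2 are neighbours (192071835 to 192077317 and 192077654 to 192080436) with similar counts in each library, so they may not be separate transcripts. The largest falls were those of ENSSSCG00000047115 on chromosome 2 (-3.02, adjusted p = 0.00756) and of ENSSSCG00000046075 and ENSSSCG00000049704 on chromosome 1 (-2.77 and -2.73, adjusted p = 0.00107 for each), which also lie close together (2900754 to 2906885 and 2827909 to 2870216) and may not be independent. The 6 lncRNAs were picked without overlap between the ages.

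The gene lists below were counted on the genes of these chromosomes alone, and their counts are to be read against the 7.73% of all genes that were higher and the 8.58% that were lower.

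**Figure D3:**
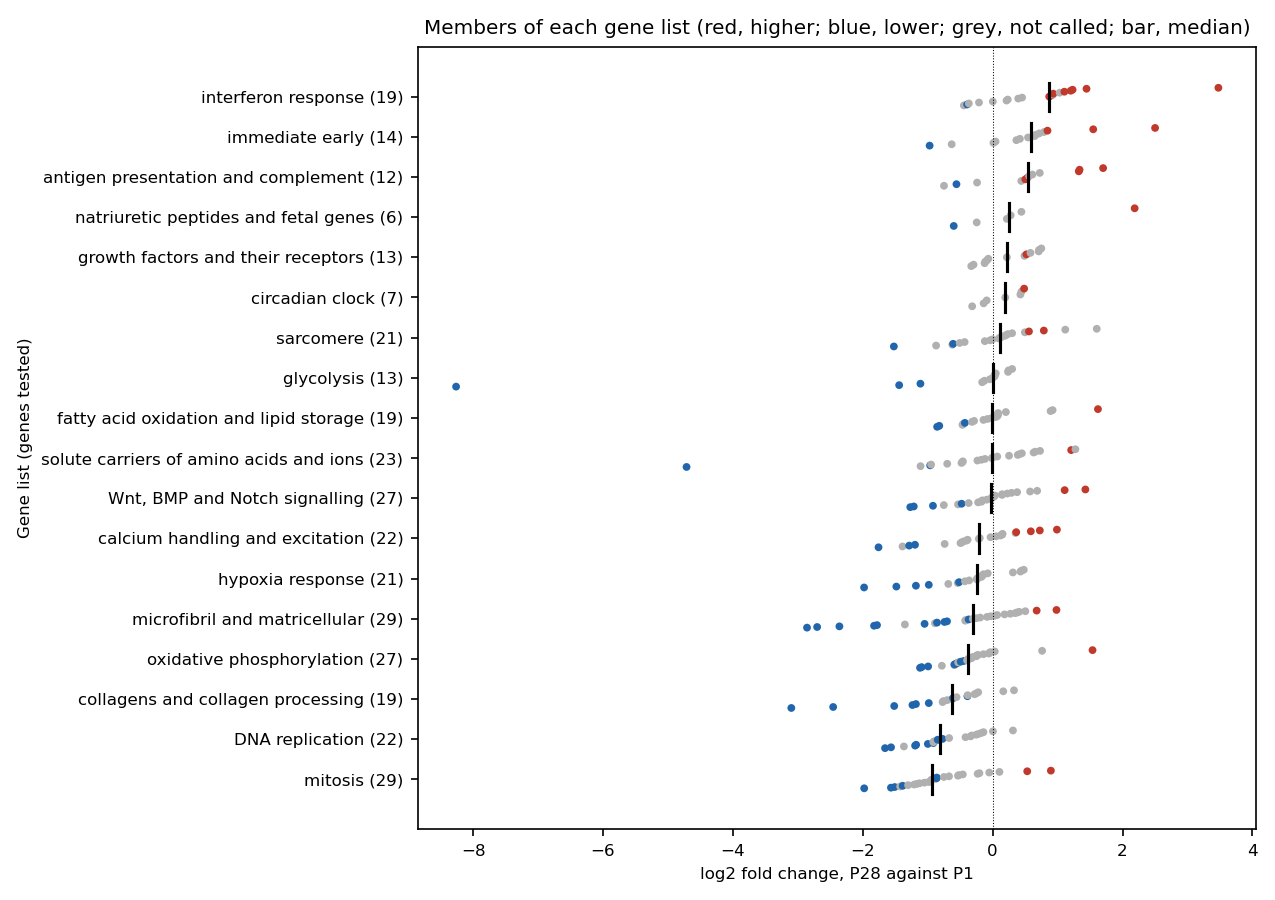
Log2 fold change at P28 against P1 of each measured member of 18 gene lists, with the number of genes tested in brackets (red, higher; blue, lower; grey, not called; black bar, median of the list). Lists of mitosis, DNA replication and collagens have the lowest medians and the interferon response the highest, at 0.87.

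In the cell cycle lists, more genes fell than rose, and most did not pass the test. Of 22 DNA replication genes 8 fell, 0 rose and 14 were not called, with a median log2 fold change of -0.81. CHAF1A and CHAF1B, subunits of the factor that loads histones onto new DNA, led by p. CHAF1B had 8.47, 12.7 and 10.3 CPM at P1 and 4.23, 5.39 and 4.11 CPM at P28 (log2 fold change -1.19 ± 0.23, adjusted p = 0.00528) and CHAF1A had 18.7, 18.5 and 20.8 CPM at P1 and 7.26, 12.5 and 5.77 CPM at P28 (log2 fold change -1.18 ± 0.29, adjusted p = 0.0181). ORC1, the largest subunit of the origin recognition complex, had 13.3, 14.8 and 18.3 CPM at P1 and 4.95, 7.60 and 3.03 CPM at P28 (log2 fold change -1.56 ± 0.40, adjusted p = 0.0201), and POLA2, a subunit of DNA polymerase alpha, had 36.1, 34.8 and 35.8 CPM at P1 and 19.9, 23.1 and 19.4 CPM at P28 (log2 fold change -0.77 ± 0.20, adjusted p = 0.0201). In each of these genes the P28 hearts lay below the P1 hearts. MCM2, a subunit of the replicative helicase, had 65.8, 72.2 and 75.3 CPM at P1 and 34.4, 59.2 and 19.97 CPM at P28 and was not called (adjusted p = 0.0647), with P28 pig 5 the highest of its age. MCM2 overlaps TPRA1, which had 1.33 times its counts, and ORC3 overlaps RARS2, which had 0.971 times its counts. TOPBP1 and ORC3, an adaptor of the checkpoint and a further origin subunit, differed by -0.25 and -0.17 (adjusted p = 0.381 and 0.556).

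Of 29 entries of the mitosis list 6 fell and 2 rose, with a median of -0.93. KIF15, a kinesin of the spindle, had 29.3, 40.4 and 38.9 CPM at P1 and 8.53, 12.2 and 6.75 CPM at P28 (log2 fold change -1.98 ± 0.39, adjusted p = 0.00566). MELK, a kinase of dividing cells, had 16.2, 18.4 and 18.4 CPM at P1 and 5.98, 9.15 and 5.09 CPM at P28 (log2 fold change -1.38 ± 0.34, adjusted p = 0.0173). CDC25C, the phosphatase that starts mitosis, is counted under 2 overlapping gene IDs that hold nearly the same reads, and of which the file types 1 as a pseudogene, so its fall of 0.86 on the log2 scale (adjusted p = 0.0222 and 0.0228) stands for 1 gene. WEE1, the kinase that opposes CDC25C, rose, with 38.6, 44.5 and 36.1 CPM at P1 and 65.2, 59.4 and 47.8 CPM at P28 (log2 fold change 0.53 ± 0.17, adjusted p = 0.0473). The other rise was that of TRAIP, a ubiquitin ligase of replication stress, with 46.2, 52.96 and 51.3 CPM at P1 and 77.9, 87.2 and 115 CPM at P28 (log2 fold change 0.90 ± 0.21, adjusted p = 0.0143). TRAIP overlaps UBA7, an interferon-induced gene that rose as well and had 1.13 times its counts, and KIF15 overlaps KIAA1143, so their reads cannot be told apart. SMC4 and CKAP5, which fold chromosomes and extend microtubules, were not called at -0.23 and -0.20, and STMN1, stathmin, had 115, 152 and 158 CPM at P1 and 66.05, 138 and 63.03 CPM at P28 (adjusted p = 0.220).

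The summed level of both cell cycle lists was not highest at P1 but at P7. Replication genes summed to 677 to 769 CPM at P1, 673 to 998 at P3, 1284 to 1584 at P7 and 465 to 636 at P28. Mitosis genes summed to 1421 to 1758 CPM at P1, 1177 to 2243 at P3, 3468 to 4280.2 at P7 and 1043 to 1498 at P28, so that the P1 and P28 ranges overlapped through P28 pig 5. These counts of calls turned on single hearts. Of the replication genes, 1 was called lower without P1 pig 6, P28 pig 4 or P28 pig 6, 4 or 5 without P1 pig 5 or P1 pig 4, 11 without P28 pig 5 and 9 without P3 pig 5. For mitosis the numbers were 1 without P1 pig 6, P28 pig 4 or P28 pig 6, 2 without P1 pig 5, 4 without P1 pig 4, 13 without P28 pig 5 and 8 without P3 pig 5. ORC1, CHAF1A, POLA2 and MELK lost their calls without P1 pig 6, P28 pig 4 or P28 pig 6 (adjusted p of up to 0.0749), TRAIP without P28 pig 6 (0.0641), CDC25C without 4 of the libraries (up to 0.0944) and WEE1 without 5 (up to 0.176). CHAF1B and KIF15 kept theirs throughout. With the pig number as a block WEE1 was at 0.0681.

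Of 21 sarcomere genes 2 rose (9.52%) and 2 fell (9.52%), near the shares of all genes tested, with a median of 0.12, and the calls are given as single genes. Besides MYBPC3, which rose, KBTBD12, a kelch protein of striated muscle, had 65.4, 92.9 and 85.5 CPM at P1 and 125, 146 and 149.9 CPM at P28 (log2 fold change 0.79 ± 0.18, adjusted p = 0.0116). Its span overlaps SEC61A1, which had 3.31 times its counts. Besides ACTC1, which fell, TPM4, a tropomyosin of non-muscle and embryonic cells, had 766, 565 and 579 CPM at P1 and 213, 232 and 221 CPM at P28 (log2 fold change -1.52 ± 0.31, adjusted p = 0.00754). TNNI3 had 14265, 11926 and 13063 CPM at P1 and 15779, 14070.4 and 14778 CPM at P28 and was not called (log2 fold change 0.19 ± 0.14, adjusted p = 0.401), and it overlaps DNAAF3, which had 0.990 times its counts. The summed level of the list overlapped between the ages, at 95993 to 109973 CPM at P1 and 94616 to 115787 at P28. TPM4 and KBTBD12 passed the test whichever library was left out.

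Among 22 genes of calcium handling and excitation 4 rose and 3 fell, with a median of -0.21. KCNE1, the beta subunit of the slow delayed rectifier potassium channel, had 43.5, 51.5 and 54.2 CPM at P1 and 131, 88.9 and 76.2 CPM at P28 (log2 fold change 0.99 ± 0.19, adjusted p = 0.00498). KCNJ11, the pore of the ATP-sensitive potassium channel, had 37.4, 37.99 and 34.7 CPM at P1 and 58.8, 52.5 and 54.3 CPM at P28 (log2 fold change 0.59 ± 0.13, adjusted p = 0.0117). TRDN, triadin, which anchors calsequestrin to the calcium release channel, had 85.5, 143 and 137 CPM at P1 and 173, 205 and 227 CPM at P28 (log2 fold change 0.73 ± 0.19, adjusted p = 0.0227), and DSG2, a desmosomal cadherin, had 183, 225 and 204 CPM at P1 and 240.3, 278 and 267 CPM at P28 (log2 fold change 0.36 ± 0.11, adjusted p = 0.0441). The groups did not overlap for any of the 4. Among the falls were CACNA2D2, an auxiliary calcium channel subunit, with 2.15, 1.51 and 2.63 CPM at P1 and 0.877, 0.981 and 0.685 CPM at P28 (log2 fold change -1.29 ± 0.30, adjusted p = 0.0144), and ATP2B2, a calcium pump of the plasma membrane, with 2.23, 2.30 and 2.47 CPM at P1 and 0.798, 0.899 and 1.37 CPM at P28 (log2 fold change -1.20 ± 0.35, adjusted p = 0.0376), at low levels without overlap. The abundant members GJA1, connexin 43, and CDH2, N-cadherin, differed by -0.03 and 0.12 with overlapping values (adjusted p = 0.903 and 0.513). KCNE1 held without each library. KCNJ11 lost its call without P1 pig 6 (0.0637), TRDN without P1 pig 4, P28 pig 5 or P28 pig 6 (up to 0.0861), CACNA2D2 without P1 pig 6 or P28 pig 6 (up to 0.0646), and ATP2B2 and DSG2 without 5 libraries each (up to 0.119 and 0.147). DSG2 was at an adjusted p of 0.0550 with the pig number as a block.

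Among 6 natriuretic peptide and fetal genes MME rose, as given above, and IGF2BP2, an RNA-binding protein of fetal tissues, fell, with 173, 123 and 125 CPM at P1 and 91.7, 93.1 and 92.98 CPM at P28 (log2 fold change -0.60 ± 0.16, adjusted p = 0.0217; up to 0.0681 without P1 pig 4 or any of the P28 pigs). NPPB, the gene of B-type natriuretic peptide, differed widely between P1 hearts, with 3001, 59.4 and 250.3 CPM at P1 and 877, 1316 and 599 CPM at P28. P1 pig 4 was above and P1 pigs 5 and 6 below all P28 hearts, and the fold change was -0.25 (adjusted p = 0.891) with P1 pig 4 and 2.58 (adjusted p = 0.0419) without it. IGF2R, the receptor that clears insulin-like growth factor 2, was not called (0.22, adjusted p = 0.600). The list had a median of 0.25.

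In sugar metabolism few genes passed the test. Of 13 glycolysis genes 3 fell and 0 rose, with a median of 0.00, and the 3 were called under each of the 16 alternatives. SLC2A5 is described above. ENO1, enolase 1, had 1042, 557 and 662 CPM at P1 and 278, 299.7 and 256 CPM at P28 (log2 fold change -1.44 ± 0.25, adjusted p = 0.00280). PFKL, the liver-type phosphofructokinase, had 736, 375 and 516 CPM at P1 and 240.4, 239 and 273 CPM at P28 (log2 fold change -1.11 ± 0.24, adjusted p = 0.00934). P1 pig 4 was highest in each, but the other P1 hearts were also above all P28 hearts. The more abundant GPI, PYGM and LDHB, which carry out hexose isomerization, glycogen breakdown in muscle and lactate oxidation, differed by -0.04, -0.13 and 0.24 and were not called (adjusted p = 0.870, 0.701 and 0.346). The LDHB entry (chromosome 2, 12988708 to 12990067) has a length of 1360 bases, its whole span, so it holds no intron. Whether it takes reads of another LDHB copy was not tested.

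Genes induced by low oxygen were lower at P28 where they were called. Of 21 members 5 fell and 0 rose, with a median of -0.24. TMEM45A, a membrane protein, had 27.2, 22.02 and 23.03 CPM at P1 and 5.90, 5.48 and 6.95 CPM at P28 (log2 fold change -1.98 ± 0.28, adjusted p = 0.00100). AK4, a mitochondrial adenylate kinase, had 61.1, 29.4 and 34.8 CPM at P1 and 14.7, 13.7 and 16.4 CPM at P28 (log2 fold change -1.48 ± 0.24, adjusted p = 0.00219). PLOD1 and PLOD2, lysyl hydroxylases that prepare collagen for crosslinking, had 477, 331 and 375 CPM at P1 and 166, 167 and 188 CPM at P28 (PLOD1; -1.18 ± 0.13, adjusted p = 0.000350) and 190.5, 152 and 154 CPM at P1 and 75.1, 84.6 and 91.4 CPM at P28 (PLOD2; -0.98 ± 0.15, adjusted p = 0.00123). All 4 were without overlap and passed without each library. TFRC, the transferrin receptor, and RRAGD, a GTPase of amino acid sensing, were lower in each P28 heart but not called (-0.54 and -0.43, adjusted p = 0.141 and 0.114), and ZNF292 was at -0.22 (adjusted p = 0.344). TFRC passed without P3 pig 5 (adjusted p = 0.0354).

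Of 19 genes of fatty acid oxidation and lipid storage 1 rose and 3 fell, with a median of -0.01. The rise was in BDH1, the enzyme of ketone body use in mitochondria, with 112, 59.8 and 50.8 CPM at P1 and 263, 207 and 215 CPM at P28 (log2 fold change 1.62 ± 0.36, adjusted p = 0.00978). SLC25A20, the carnitine-acylcarnitine carrier, had 236, 256 and 283 CPM at P1 and 142, 121 and 166 CPM at P28 (log2 fold change -0.85 ± 0.13, adjusted p = 0.00167), and CPT2, the carnitine palmitoyltransferase of the inner membrane, had 149, 123 and 171 CPM at P1 and 84.9, 72.3 and 93.9 CPM at P28 (log2 fold change -0.82 ± 0.17, adjusted p = 0.00702). BDH1, SLC25A20 and CPT2 passed without each library. SLC27A4, a fatty acid transport protein that overlaps COQ4 with 1.26 times its counts, fell by 0.43 on the log2 scale (adjusted p = 0.0348) but not when any of the 6 libraries was left out (0.0535 to 0.118). FABP3, the heart fatty acid binding protein, had 3115, 1894 and 2257 CPM at P1 and 1824, 1786 and 1699.6 CPM at P28 (adjusted p = 0.196), and ACADM and ACAA2, enzymes of beta-oxidation, were at 0.05 and -0.08 (adjusted p = 0.918 and 0.737).

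Subunits of the respiratory chain were lower where called. Of 27 genes of the oxidative phosphorylation list, which includes creatine kinases, 8 fell and 1, CKM, rose, with a median of -0.38. COX8A, a subunit of cytochrome oxidase, had 319, 336 and 377 CPM at P1 and 168, 195 and 155 CPM at P28 (log2 fold change -0.99 ± 0.15, adjusted p = 0.00153). NDUFA2, a subunit of complex I, had 274, 292 and 281 CPM at P1 and 115, 159 and 124 CPM at P28 (log2 fold change -1.09 ± 0.19, adjusted p = 0.00263). COX7A2, the cytochrome oxidase isoform found in most tissues, had 492, 476 and 490.0 CPM at P1 and 236, 251 and 186 CPM at P28 (log2 fold change -1.12 ± 0.27, adjusted p = 0.0156), and NDUFA8, a further complex I subunit, had 657, 687 and 661 CPM at P1 and 489, 535 and 449 CPM at P28 (log2 fold change -0.45 ± 0.11, adjusted p = 0.0205). None of these overlapped between the ages. CKMT2, the mitochondrial creatine kinase of muscle, had 4776, 3049.7 and 3443 CPM at P1 and 2914, 2108 and 1534 CPM at P28 and was not called (adjusted p = 0.109). The number of falls was 7 without P1 pig 4, 3 without P1 pig 5 or P1 pig 6, 4 without P28 pig 4, 5 without P28 pig 5, 2 without P28 pig 6, 11 without P3 pig 5 and 15 in a fit of the 6 libraries alone. COX7A2 lost its call without P28 pig 6 (0.0661) and NDUFA8 without P1 pig 5, P1 pig 6, P28 pig 4 or P28 pig 6 (up to 0.0852), while COX8A and NDUFA2 kept theirs.

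Among genes of the matrix more fell than rose. Of 19 genes of collagens and their processing 8 fell (42.1%) and 0 rose, with a median of -0.63. COL12A1, a collagen that lies on the surface of fibrils, had 755, 465 and 463 CPM at P1 and 188, 211 and 189.7 CPM at P28 (log2 fold change -1.52 ± 0.20, adjusted p = 0.000612). ADAMTS2, the protease that trims procollagen, had 235, 245 and 235 CPM at P1 and 95.2, 107 and 101 CPM at P28 (log2 fold change -1.23 ± 0.15, adjusted p = 0.000392). COL8A1, PLOD1 and PLOD2 are given above. Of the abundant members, COL5A1, which starts fibrils, had 707, 809.7 and 694 CPM at P1 and 361, 458 and 477 CPM at P28 (log2 fold change -0.77 ± 0.40, adjusted p = 0.205), COL18A1 of the basement membrane had 960.1, 760.5 and 768 CPM at P1 and 485, 579 and 546 CPM at P28 (log2 fold change -0.63 ± 0.25, adjusted p = 0.109), and COL15A1 was at -0.22 (adjusted p = 0.374). COL5A1 and COL18A1 did not overlap between the ages but were not called, and without P3 pig 5 their adjusted p was 0.0139 and 0.0102. The list summed to 5196 to 5375 CPM at P1 and 2929 to 3584 at P28. It held 7 or 8 falls when 1 library was left out, and 12 without P3 pig 5.

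Of 29 microfibril and matricellular genes 10 fell (34.5%) and 2 rose, with a median of -0.31. Besides FBN1 and TNC, VCAN, the proteoglycan versican of the developing heart, had 735, 856 and 848 CPM at P1 and 382, 401 and 396 CPM at P28 (log2 fold change -1.05 ± 0.17, adjusted p = 0.00190). LAMA1, a laminin chain of embryonic basement membranes, had 11.1, 15.1 and 9.95 CPM at P1 and 1.75, 1.47 and 3.92 CPM at P28 (log2 fold change -2.36 ± 0.38, adjusted p = 0.00194), and CILP, a matrix protein of cartilage and fibroblasts, had 100.1, 54.2 and 92.4 CPM at P1 and 28.7, 17.8 and 25.3 CPM at P28 (log2 fold change -1.78 ± 0.32, adjusted p = 0.00381). The groups did not overlap in any of these. The abundant basement membrane genes HSPG2, perlecan, and LAMB2, a laminin chain, were at 0.04 and 0.18 with overlapping values (adjusted p = 0.951 and 0.461). The rises were those of THBS4, a thrombospondin (log2 fold change 0.68 ± 0.22, adjusted p = 0.0497), and HAS3, a hyaluronan synthase (log2 fold change 0.98 ± 0.27, adjusted p = 0.0277). THBS4 was highest at P7, with a mean of 91.1 CPM, and was at 0.0503 with DESeq2's size factors and up to 0.166 without P1 pig 5, P1 pig 6, P28 pig 4 or P28 pig 5. HAS3 overlaps DERPC, which had 20.1 times its counts, and reached 0.0892 without P1 pig 5, with the call held without P1 pig 4 alone. The number of falls was 7 to 9 without 1 library and 15 without P3 pig 5.

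Fibroblast markers stand beside the matrix genes, with which they share FBN1. Of 5 markers measured 3 fell: FBN1, which is also in the matrix list, TCF21, a transcription factor of fibroblast precursors, with 43.97, 41.1 and 38.2 CPM at P1 and 18.03, 18.9 and 22.2 CPM at P28 (log2 fold change -1.06 ± 0.14, adjusted p = 0.000680), and FBLN2, fibulin-2, with 355, 349.9 and 339 CPM at P1 and 199, 169 and 209 CPM at P28 (log2 fold change -0.86 ± 0.18, adjusted p = 0.00771). MMP2, a gelatinase, and GSN, gelsolin, were not called (-0.42 and 0.06, adjusted p = 0.199 and 0.870). The 5 summed to 5779 to 6020.2 CPM at P1 and 2960.2 to 3053 at P28, with 5690.2 to 5959 at P7, but most of that difference lay in FBN1. Without FBN1 the other 4 summed to 2025 to 2205 CPM at P1 and 1774 to 2063 CPM at P28, ranges that overlap. All 3 epicardial markers fell: TCF21, which belongs to both lists, TBX18 (log2 fold change -0.84 ± 0.15, adjusted p = 0.00326) and ALDH1A2, an enzyme of retinoic acid synthesis (log2 fold change -0.74 ± 0.16, adjusted p = 0.00773). They summed to 183 to 231 CPM at P1 and 114 to 125 at P28. The part of these markers in the matrix result was not tested.

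The interferon list had the highest median of the 18 lists, 0.87. Of 19 genes 8 rose (42.1%) and 1 fell. IFI44L, an interferon-induced protein, had 67.00, 98.2 and 106 CPM at P1 and 218, 201 and 319.9 CPM at P28 (log2 fold change 1.45 ± 0.25, adjusted p = 0.00306). IFI6, a further one, had 170.0, 179 and 271 CPM at P1 and 443, 496 and 488 CPM at P28 (log2 fold change 1.20 ± 0.36, adjusted p = 0.0399). UBA7, the enzyme that activates ISG15 for conjugation, had 44.5, 51.7 and 49.6 CPM at P1 and 95.7, 106 and 141 CPM at P28 (log2 fold change 1.23 ± 0.28, adjusted p = 0.0112), and PARP9, an ADP-ribosyltransferase partner of antiviral signalling, had 39.7, 56.6 and 56.01 CPM at P1 and 111, 73.5 and 107 CPM at P28 (log2 fold change 0.93 ± 0.22, adjusted p = 0.0128). The groups of these genes did not overlap. ISG20, an exonuclease, had 5, 2 and 2 counts at P1 and 51, 10 and 31 at P28, a ratio of 11.5 after scaling with a 95% counting interval of 5.82 to 26.0 (adjusted p = 0.00741). IFNAR1, a chain of the interferon receptor, fell (log2 fold change -0.39 ± 0.11, adjusted p = 0.0364). MX2 had 164, 212 and 293 CPM at P1 and 367, 194 and 355 CPM at P28 and was not called (adjusted p = 0.423). PARP9 overlaps KPNA1, which had 6.73 times its counts, and UBA7 overlaps TRAIP.

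The list summed to 1698 to 1997 CPM at P1, 1054 to 1361 at P3, 1181 to 1812 at P7 and 2309 to 2975 at P28, so that each P28 heart was above every heart of the other ages. With the pig number as a block 5 of the interferon-induced genes passed as higher, and IFI6 was at an adjusted p of 0.0519. The number was 3 without P28 pig 6, 4 without P1 pig 5 or P28 pig 4, 5 without P1 pig 4, 6 without P1 pig 6, 7 without P28 pig 5 and 8 without P3 pig 5. IFI44L, ISG20 and UBA7 passed without each library. PARP9 was at 0.0502 without P28 pig 6, IFI6 at 0.0504 to 0.124 without any of the 6, and IFNAR1 at up to 0.138 without any but P28 pig 4.

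Of 12 genes of antigen presentation and complement 5 rose, 1 fell and 6 were not called, with a median of 0.55. CFD, complement factor D, had 31.9, 29.2 and 31.3 CPM at P1 and 111, 98.00 and 91.3 CPM at P28 (log2 fold change 1.70 ± 0.34, adjusted p = 0.00623). C5AR1, the receptor of the complement fragment C5a, had 9.29, 7.48 and 11.5 CPM at P1 and 31.3, 21.6 and 18.5 CPM at P28 (log2 fold change 1.34 ± 0.23, adjusted p = 0.00262). B2M, the light chain of class I molecules, had 792, 613 and 748 CPM at P1 and 1129, 988 and 1003 CPM at P28 (log2 fold change 0.54 ± 0.14, adjusted p = 0.0232), and CD74, the invariant chain of class II molecules, had 1057, 982 and 999 CPM at P1 and 1439, 1454 and 1414 CPM at P28 (log2 fold change 0.50 ± 0.14, adjusted p = 0.0279). FCGRT, the neonatal Fc receptor that carries antibody across epithelia and protects it from breakdown, fell, with 346, 341 and 376 CPM at P1 and 240.1, 245 and 238 CPM at P28 (log2 fold change -0.56 ± 0.12, adjusted p = 0.00780). No values overlapped. CFD, which overlaps MED16 with 1.65 times its counts, C5AR1 and FCGRT passed without each library. B2M reached 0.0949 (without P1 pig 5, and over the threshold also without P1 pig 6, P28 pig 4 or P28 pig 6) and CD74 0.0880 (lost without any but P1 pig 4). The number of rises was 2 without P1 pig 5, P1 pig 6 or P28 pig 4, 3 without P28 pig 6, 4 without P1 pig 4 or P28 pig 5 and 6 without P3 pig 5.

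Some markers of immune cells rose as well. Of 12 macrophage and monocyte markers 4 rose: CCR2, a chemokine receptor of monocytes (log2 fold change 1.46 ± 0.36, adjusted p = 0.0173), TYROBP, a signalling adaptor (log2 fold change 0.89 ± 0.24, adjusted p = 0.0272), CSF3R, the receptor of granulocyte growth factor (log2 fold change 1.41 ± 0.43, adjusted p = 0.0415), and SPI1, the factor PU.1 (log2 fold change 0.69 ± 0.21, adjusted p = 0.0451). Their list summed to 534 to 734 CPM at P1 and 808 to 1274 at P28, highest in P28 pig 4. LYVE1, a marker of resident macrophages, was at -0.01 (adjusted p = 0.976). The complement genes C1QA, C1QB and C1QC, which the list of antigen presentation and complement shares, and CSF1R, a receptor of macrophages, were not called. The number of macrophage rises was 0 without P1 pig 6 or P28 pig 4, 1 without P1 pig 5 or P28 pig 5, 3 without P1 pig 4, 4 without P28 pig 6, 3 with the pig number as a block and 6 without P3 pig 5. Of 5 lymphocyte markers 3 rose: CD22, LCK, a kinase of T cells (log2 fold change 2.09 ± 0.50, adjusted p = 0.0152), and CD5, a receptor of T cells (log2 fold change 1.78 ± 0.52, adjusted p = 0.0372). The list summed to 626 to 640 CPM at P1 and 529 to 608 at P28. Its counts lay almost wholly in CD79A, which had 624, 636 and 619 CPM at P1 and 561, 593 and 512 CPM at P28 (adjusted p = 0.401). CD79A had up to 8834 counts in a library, while the B cell markers MS4A1 and PAX5 had at most 24 and 7. Whether the CD79A reads came from B cells was not tested. Without P1 pig 5 or P28 pig 4 1 lymphocyte marker passed, and 2 without P1 pig 6. What part these cells had in the interferon and complement results was not tested.

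Immediate early genes, which switch on within minutes of a stimulus or of tissue handling, were higher in part. Of 14 tested 3 rose and 1 fell, with a median of 0.60. Besides NR4A3, the entry of JUN, a subunit of AP-1, which is typed as a pseudogene and has no symbol in the gene file (its ID, ENSSSCG00000031912, is paired with JUN in a reference table of gene names), had 220.2, 176 and 292 CPM at P1 and 552, 804 and 659 CPM at P28 (log2 fold change 1.55 ± 0.30, adjusted p = 0.00554). ZFP36, which destabilizes inflammatory messenger RNAs, had 48.95, 52.7 and 61.8 CPM at P1 and 93.2, 110.0 and 90.2 CPM at P28 (log2 fold change 0.84 ± 0.18, adjusted p = 0.00898). GADD45A, a stress gene, fell, with 121, 59.9 and 72.5 CPM at P1 and 48.7, 39.1 and 41.6 CPM at P28 (log2 fold change -0.97 ± 0.27, adjusted p = 0.0291). PPP1R15A, of the stress response of translation, had 269, 105 and 107 CPM at P1 and 323, 264 and 178 CPM at P28 (adjusted p = 0.314). The list summed to 699 to 1161 CPM at P1 and 1709 to 2484 at P28, highest in P28 pig 5. Per the study's methods the hearts were washed cold without delay and then snap-frozen, and the part of handling in these genes was not tested. NR4A3, JUN and ZFP36 passed without each library, although ZFP36 overlaps PAF1 with 1.79 times its counts. GADD45A lost its call without P1 pig 4 or any of the P28 pigs (up to 0.115), and 5 genes were called higher without P1 pig 4. Of 7 circadian clock genes 1 rose, NR1D2, a nuclear receptor of the clock (log2 fold change 0.49 ± 0.15, adjusted p = 0.0415), with a median of 0.19. NR1D2 passed only with all 6 libraries (0.0544 to 0.156 without 1), and CRY2 and BHLHE40 were not called (-0.09 and 0.44, adjusted p = 0.791 and 0.305).

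In Wnt, BMP and Notch signalling 2 of 27 genes rose and 4 fell, with a median of -0.02. WLS, the carrier that brings Wnt proteins to the cell surface, had 74.5, 69.4 and 74.3 CPM at P1 and 31.03, 30.8 and 32.2 CPM at P28 (log2 fold change -1.21 ± 0.11, adjusted p = 6.55e-05). SMAD7 and SMAD6, inhibitors of signalling by TGF-beta and BMP receptors, had 118, 74.7 and 68.3 CPM at P1 and 34.1, 30.2 and 44.3 CPM at P28 (SMAD7; -1.27 ± 0.22, adjusted p = 0.00266) and 44.5, 37.2 and 28.6 CPM at P1 and 14.04, 18.9 and 25.5 CPM at P28 (SMAD6; -0.92 ± 0.22, adjusted p = 0.0166). No P28 heart reached the lowest P1 heart for any of the 3. The rises were in ACVR2B, an activin receptor, with 15.5, 28.6 and 22.9 CPM at P1 and 47.6, 47.5 and 49.7 CPM at P28 (log2 fold change 1.11 ± 0.33, adjusted p = 0.0394), and in DLL1, a Notch ligand, with 1.56, 4.53 and 3.04 CPM at P1 and 8.38, 7.11 and 9.20 CPM at P28 (log2 fold change 1.43 ± 0.43, adjusted p = 0.0417). SMAD4 and DKK3 were not called (0.15 and -0.75, adjusted p = 0.530 and 0.168). WLS and SMAD7 held without each library, SMAD6 was lost without P1 pig 4, P28 pig 4 or P28 pig 5 (up to 0.0589), and ACVR2B and DLL1 without any but P1 pig 5 (up to 0.107 and 0.112).

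Of 13 growth factors and receptors 1 rose, TEK, the angiopoietin receptor of endothelium, with 203, 229 and 207 CPM at P1 and 349.8, 299 and 269 CPM at P28 (log2 fold change 0.52 ± 0.15, adjusted p = 0.0327) and a list median of 0.22. TEK lost its call without any library but P28 pig 6 (up to 0.119). IGF1R, the receptor of insulin-like growth factor 1, had 647, 404 and 357 CPM at P1 and 1028, 649 and 634 CPM at P28 (adjusted p = 0.127, 0.0488 without P1 pig 4 and 0.0472 without P3 pig 5), and FGF1 was at -0.12 (adjusted p = 0.662). Of 23 solute carriers of amino acids and ions 1 rose and 2 fell, near or below the shares of all genes tested, with a median of -0.01. SLC38A3, a glutamine carrier, had 13.4, 11.8 and 13.6 CPM at P1 and 24.97, 27.7 and 37.2 CPM at P28 (log2 fold change 1.21 ± 0.24, adjusted p = 0.00575). Among the falls, SLC7A10, an amino acid exchanger that overlaps LRP3 with 8.88 times its counts, had 5.05, 6.33 and 8.96 CPM at P1 and 2.31, 4.50 and 3.62 CPM at P28 (log2 fold change -0.96 ± 0.29, adjusted p = 0.0422). SLC7A10 was at 0.0638 with the pig number as a block, 0.0758 in a fit of the 6 libraries alone and up to 0.172 without P1 pig 6. It was also lost without P1 pig 5, P28 pig 4 or P28 pig 6. SLC25A34, SLC16A10 and SLC12A4 were at -0.12, 0.07 and -0.48 and were not called (adjusted p = 0.767, 0.778 and 0.137), and SLC25A34 overlaps FBLIM1, which had 1.31 times its counts.

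Only 3 nerve markers were measured, and genes best known from nerve moved both ways, as SNAP91 and SEMA5B fell. CHL1, described above, CDH19, a cadherin of Schwann cells, and MBP, myelin basic protein, were the 3 measured and all were higher at P28. CDH19 had 6.46, 3.02 and 2.71 CPM at P1 and 11.3, 17.8 and 13.8 CPM at P28 (log2 fold change 1.81 ± 0.38, adjusted p = 0.00820), and MBP had 19.98, 15.8 and 21.4 CPM at P1 and 115, 29.7 and 44.1 CPM at P28 (log2 fold change 1.73 ± 0.49, adjusted p = 0.0316). P28 pig 4 was far above the others for MBP but the lowest of its age for CHL1 and CDH19. The 3 markers summed to 24.8 to 37.5 CPM at P1, 32.3 to 78.5 at P3, 56.6 to 91.3 at P7 and 99.2 to 166 at P28. Of the 3, 2 were called without any of the P1 pigs or without P28 pig 4.

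The remaining marker lists were as follows. Of 12 cardiomyocyte markers 3 rose (CKM, MYBPC3 and TRDN) and 1 fell (ACTC1). Of 7 endothelial markers TEK rose and ECSCR, an adhesion-related surface protein of endothelium, fell, with 64.3, 35.5 and 37.6 CPM at P1 and 11.96, 12.7 and 15.6 CPM at P28 (log2 fold change -1.77 ± 0.26, adjusted p = 0.00122), and their sum overlapped between the ages (801 to 1035 against 778 to 838 CPM). The smooth muscle and pericyte markers NOTCH3 and PDGFRB were at -0.22 and -0.11, and 0 of the 2 was called. Of 4 erythroid markers 0 were called, with TFRC the most counted, and of 3 skeletal muscle markers 0 were called. LIPE, the lipase of fat cells and the adipocyte marker that could be tested, had 29.9, 20.9 and 28.7 CPM at P1 and 51.4, 37.6 and 62.1 CPM at P28 (log2 fold change 0.92 ± 0.34, adjusted p = 0.0839).

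**Figure D4:**
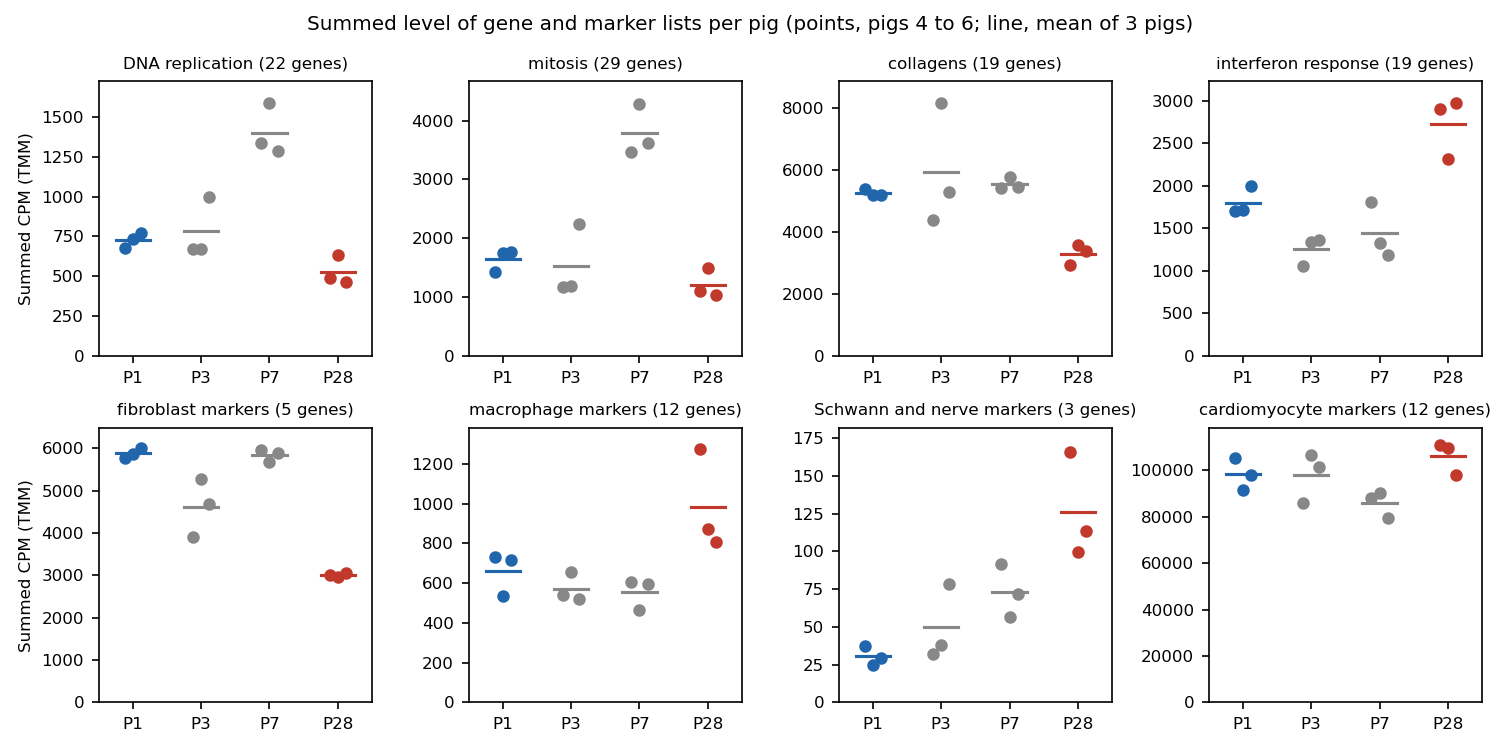
Summed TMM-normalized CPM of 8 gene or marker lists in each pig at P1, P3, P7 and P28 (points, pigs 4 to 6; lines, means of 3 pigs; blue P1, red P28, grey the ages between; each panel starts at 0). Cell cycle sums peak at P7, the fibroblast marker sum, most of whose difference is FBN1, is 5779 to 6020 CPM at P1 and 2960 to 3053 CPM at P28, and interferon, macrophage and nerve sums have their highest means at P28.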

How the data were processed

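Total RNA of hearts was depleted of ribosomal RNA and sequenced as paired reads by CD Genomics. The submitters' processing notes name STAR 2.7.9a and MultiQC 1.11. The program that counted genes, its strand setting and the build of its annotation were not given in the sources used here, so positions are those of the gene file. The paper names a genome build in its circular RNA methods and a stranded kit for total RNA, but not how genes were counted. The authors deposited raw counts per gene without normalization. A last line without counts was left out. Of the 5280 genes, 3875 had a symbol in the file, 231 were named from a RefSeq table and 1174 had none. MicroRNA and circular RNA files, and promoter or other sequences, were not used here.

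Counts were tested in R 4.3.3 with edgeR 4.0.16 (TMM, quasi-likelihood test, all 4 ages in one fit of 12 libraries, limma 3.58.1 loaded), P28 against P1, with Benjamini-Hochberg adjustment and a call at an adjusted p under 0.05. The gene filter used the 6 P1 and P28 libraries. Standard errors are the log2 fold change over the square root of F, and the value after ± is a standard error for fold changes and an SD for levels. Each library is 1 pig, so p-values measure the spread between 3 pigs per age, whose coefficient of variation was 20.9%. An exact permutation test of 3 against 3 cannot go below 0.10. Counting intervals are exact, at 95%, and cover counting error only. DESeq2 1.42.0 was an alternative, and matplotlib 3.10.9 under Python 3.11.15 made the plots. The steps were tested on simulated data.

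Named genes were, among called protein-coding genes with a symbol in the file borne by 1 gene ID and no overlap between the ages, the 15 largest log2 fold changes per direction with at least 5 CPM in the higher group and the 5 largest gains and losses in mean CPM. Called lncRNAs without overlap were named by ID, 3 per direction. Per list, up to 4 called members per direction and up to 3 of the highest level were named, called or not, also where the symbol came from a reference table or the file types the entry as a pseudogene (JUN and 1 ID of CDC25C). Called members of the marker lists, and a few further markers, were named after their values were seen. Some genes that meet this rule are not reported here. Members and lists were chosen with earlier results of these data known. Same-numbered P1 and P28 libraries deviated together from their age means (r = 0.366, 0.139 and 0.176), but so did P1 pig 5 with P28 pig 6 (0.245) and P1 pig 6 with P28 pig 5 (0.118). The pigs differ and no label states a shared litter, so the fit with the pig number as a block is given where it ends a call.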

Additional observations from a re-analysis of the deposited data

How the results depend on the processing

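The number of genes called was 861 (408 higher and 453 lower) and stayed within a factor of 1.5 under these alternatives: 854 with DESeq2's size factors, 1083 with the DESeq2 test, 804 of 8034 without a count filter, 708 of 4299 with at least 50 counts, 1186 in the 6 libraries alone, 737 of 4454 with protein-coding genes alone, 850 without Metazoa_SRP genes and 1223 with an unadjusted p under 0.05 and a log2 fold change over 0.5. With the pig number as a replicate block it was 796 (385 and 411), of which 757 were among the 861; the block ended the calls of STK32A, CTNNB1, WEE1, DSG2, IFI6 and SLC7A10 among the named genes. Of the named calls, the fit without a filter also ended those of CTNNB1, WEE1, DSG2, ATP2B2, SLC27A4, THBS4, IFNAR1 and NR1D2 (adjusted p = 0.0540 to 0.0947), at least 50 counts those of WEE1 and THBS4, the 6 libraries alone those of ACTC1 (0.0541) and SLC7A10, DESeq2's size factors and the fit without Metazoa_SRP genes that of THBS4, and the fold limit of 0.5 those of CTNNB1, DSG2, SLC27A4, NDUFA8, IFNAR1 and NR1D2. Leaving out 1 library gave 463 to 663 calls, 201 to 302 higher and 248 to 361 lower, with 663 without P1 pig 4, 540 without P1 pig 5, 463 without P1 pig 6, 547 without P28 pig 4, 569 without P28 pig 5 and 486 without P28 pig 6. Fewer samples entered these fits. Without P3 pig 5, an alternative chosen after seeing the data, 1412 genes were called, 698 higher and 714 lower, and all 861 were among them. NPPB reversed, from -0.25 (adjusted p = 0.891) to 2.58 (adjusted p = 0.0419) without P1 pig 4, where leaving out the other libraries gave -0.80 to -0.01 and the replicate block 0.29, none of them called. The cause was not tested. No other named gene reversed. Genes under the count minimum were tested in the fit without a filter alone, where 742 of its 804 calls were among the 861.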

Other observations

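Several of the largest fold changes fell outside the rule for named genes because of low levels or of a symbol missing from the gene file, and were picked after their values were seen. ENSSSCG00000013788, a protein-coding gene on chromosome 2 that has no symbol in the sources used here, had 0.817, 0.288 and 1.81 CPM at P1 and 74.02, 8.99 and 22.2 CPM at P28 (log2 fold change 5.19 ± 0.75, adjusted p = 0.00107). CD72, a receptor of B cells, had 0.149, 0.504 and 0.329 CPM at P1 and 14.5, 5.48 and 5.58 CPM at P28 (log2 fold change 4.66 ± 0.55, adjusted p = 0.000367), highest in P28 pig 4. CD226, a receptor of natural killer and T cells, had 10 counts over the P1 hearts and 114 over the P28 hearts, a scaled ratio of 12.9 with a 95% counting interval of 6.75 to 27.6 (adjusted p = 0.00703). XCR1, a chemokine receptor of dendritic cells, had 8 and 91 counts, a ratio of 12.8 (6.25 to 30.7; adjusted p = 0.0111). SI, the intestinal sucrase-isomaltase, had 0 counts in the P1 hearts and 44 over the P28 hearts, at least 5.52-fold higher when the P1 group is set to 3 counts per library. PRSS35, a secreted serine protease, had 195 counts at P1 and 3 at P28, a ratio of 57.5 (19.4 to 281; adjusted p = 0.000304), and TMEM59L had 62 and 3 counts, a ratio of 18.3 (5.98 to 91.1; adjusted p = 0.000511). The adjusted p-values and the log2 fold changes are from edgeR's quasi-likelihood test with Benjamini-Hochberg adjustment, while the ratios and their intervals are of summed counts and cover counting error only.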
